A study of Mus musculus with 6 samples.

Results

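Macrophage and leukocyte identity genes, a set of 40 surface, lysosomal and signalling genes that mark macrophages or blood-derived cells in general, were examined in the soleus, a postural hindlimb muscle. The members were taken by name from an array of 34492 rows, and 39 of the 40 names had a row. A row was tested where its detection score (from 0 to 1, near 1 where a signal stands above the negative controls) was above 0.95 on at least 3 of the 6 arrays, which held for 28 members among 12611 tested rows. The Coco/KO mice were male, 11 months old, and lacked skeletal muscle alpha-actin, which cardiac actin replaced in skeletal muscle. The wild-type mice were male and 11 months old too, and both genotypes carried the strain designation CBB6F1xFVB/n. Each genotype had 3 RNA samples, each pooled from soleus muscles of 2 different mice, and all 6 samples were on 1 Illumina beadchip. The promoter behind cardiac actin in the Coco/KO mice is not stated in the labels. The names in the array table are EMR1 (Adgre1), CD68, CSF1R, AIF1, MPEG1, MS4A7 and SPI1 for macrophage identity, MRC1, CD163 and CX3CR1 for resident macrophages, and CCR2, ITGAX, CD14, LGALS3, GPNMB, SPP1, MSR1 and CD83 for inflammatory and activated macrophages. The remaining names are ITGAM and ITGB2 (integrins), PTPRC, CD53, CD52, CD48 and LAPTM5 (pan-leukocyte membrane), TYROBP, LCP1, CORO1A, RAC2, ARHGDIB, LST1 and PLEK (signalling and cytoskeleton), CYBB, CYBA, NCF1 and NCF4 (oxidase), CTSC and CTSZ (cathepsins), and CD3E and CD79B (lymphocytes). Mouse symbols are used from here on.

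Resting skeletal muscle holds a small population of resident macrophages between its fibres, which clear debris and depend on the growth factor receptor Csf1r. After fibre damage, blood monocytes that carry the chemokine receptor Ccr2 enter the muscle and become phagocytic macrophages, which make galectin-3 (Lgals3), osteopontin (Spp1) and Gpnmb in many injured tissues. All of these genes were read from RNA of the whole muscle, so more cells of a type and more RNA per cell cannot be told apart here.

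The transcription factor PU.1 (the product of Spi1) binds purine-rich GAGGAA boxes at many macrophage genes. The 250 bases before a RefSeq transcript start (build GRCm38.p6) are shown for 4 tested members. These had the lowest unadjusted p among those whose window held these letters and could be shown. Capitals mark GAGGAA, written TTCCTC where it lies on the opposite strand. The windows are chr4:130913066-130913315 on the plus strand for Laptm5, chr2:14229164-14229413 on the plus strand for Mrc1, chr11:17008719-17008968 on the minus strand for Plek and chr11:69666171-69666420 on the minus strand for Cd68.
Laptm5: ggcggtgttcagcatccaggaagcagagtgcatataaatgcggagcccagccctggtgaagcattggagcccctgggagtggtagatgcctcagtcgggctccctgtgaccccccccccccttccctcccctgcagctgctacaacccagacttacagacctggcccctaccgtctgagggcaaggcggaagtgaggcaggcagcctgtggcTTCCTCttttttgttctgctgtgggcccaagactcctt
Mrc1: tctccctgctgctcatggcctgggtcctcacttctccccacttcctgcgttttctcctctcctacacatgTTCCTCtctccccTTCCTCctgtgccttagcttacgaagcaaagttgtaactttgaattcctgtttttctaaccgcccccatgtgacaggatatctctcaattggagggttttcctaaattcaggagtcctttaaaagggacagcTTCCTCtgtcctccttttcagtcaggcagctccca
Plek: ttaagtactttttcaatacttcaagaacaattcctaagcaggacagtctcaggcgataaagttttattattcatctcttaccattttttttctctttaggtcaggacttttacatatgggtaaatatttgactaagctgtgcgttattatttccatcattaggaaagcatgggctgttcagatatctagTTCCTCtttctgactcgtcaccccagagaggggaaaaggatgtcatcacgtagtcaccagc
Cd68: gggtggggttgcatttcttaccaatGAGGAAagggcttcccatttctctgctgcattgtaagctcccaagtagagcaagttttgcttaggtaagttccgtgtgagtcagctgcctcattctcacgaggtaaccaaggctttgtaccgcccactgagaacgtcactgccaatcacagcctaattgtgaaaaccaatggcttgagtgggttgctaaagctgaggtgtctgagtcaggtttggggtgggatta
The Mrc1 window held 3 matches, and the windows of Laptm5, Plek and Cd68 held 1 each. Of the 28 tested members 19 had a window in the table, and 8 of these (42.1%) held GAGGAA on either strand, against 23.3% of all 32851 windows of the same length. Windows with at least 2 matches were those of 3 of these 19 members (Mrc1, Ctsc and Itgam), against 3.54% of all windows. Each member had 1 window, the nearest to its annotated gene start, while all windows could include several per gene. The transcript start of that window lay 18442 bases from the annotated gene start for Cybb, 747 for Cd48 and 426 for Laptm5. For the other members with a window it lay at most 61 bases away. The windows of Lgals3, Ctsz and Mpeg1 held no match. A match describes the letters and is not a measured binding site, and any part of PU.1 in the members' values was not tested. The row of Spi1 itself, listed under its older name and so outside the 39, had a normalized intensity (quantile normalized between arrays, linear scale, deposited units) of 28.0, 150 and 87.5 on the Coco/KO arrays, against 73.1, 58.5 and 94.5 on the wild-type arrays, and its groups overlapped (log2 difference, Coco/KO minus wild type, 0.05, SE 0.29, limma p adjusted over all tested rows = 0.992).

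The labels were checked against the exchanged actins. Acta1 lay between 1383 and 2253 in normalized intensity on the Coco/KO arrays, against 39526 to 49552 on the wild-type arrays, and Actc1 lay between 4619 and 7740 on the Coco/KO arrays, against 591.9 to 1261 on the wild-type arrays. Mean intensity per array was between 330.2 and 470.2, between 11606 and 13071 rows were detected, and a median of 35 or 36 beads stood behind each value. With 3 arrays per genotype, the number of arrays limits the precision.

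Across the set, most tested members had a higher signal in Coco/KO soleus, but no member passed the threshold. Of 28 tested members 26 had a log2 difference above 0 and 2, Cx3cr1 and Lst1, below 0, where 49.9% of all tested rows lay above 0. None had an adjusted p under 0.05 in limma, where 0.143% of tested rows did (0.0634% higher), and the lowest adjusted p was 0.229. At an unadjusted p under 0.05, 8 members were higher (3.96% of all tested rows) and 0 lower (4.23%). That count was 2 when the arrays were scaled to 1 median, 3 with background modelled from the detection scores, 3 without wild-type array 2, 4 without wild-type array 3, 5 without wild-type array 1 and 15 without Coco/KO 1. The median log2 difference of the tested members was 0.43, against -2.9e-04 over all tested rows, and it was 0.14 with modelled background. Members could enter the tested set through the genotype in which they were bright. The 14 members detected on all 6 arrays were all higher, with a median of 0.63 and 4 at an unadjusted p under 0.05 (4.52% of rows detected on all 6 arrays). Over all 39 rows with no filter, 34 were higher and the median was 0.27. On simulated data of this size, limma called 1.12% of rows changed by 0.5 on the log2 scale, 53.3% of those changed by 1 and 96.7% of those changed by 2. In that setting differences of the size of most members were mostly not detectable. The simulated rows had the same spread in both genotypes. Members such as Lgals3 (log2 SD 1.28 in Coco/KO and 0.11 in wild-type soleus) did not, so these shares need not hold for them.

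One pool carried much of this. The Coco/KO 3 array was the highest of the 6 for 21 of 28 tested members (75%), against 13.8% of all tested rows. The median member stood 0.17, 0.28 and 0.76 above the wild-type mean on the log2 scale on Coco/KO arrays 1, 2 and 3, and at 0.04, -0.12 and 0.07 on the wild-type arrays. Without Coco/KO 3 the median over the tested members was 0.25, 23 of 28 were above 0 and 3 (Cd52, Lgals3 and Ctsz) had an unadjusted p under 0.05, against 4.3% of all tested rows in that fit. The tested rows were still those chosen by detection with Coco/KO 3 included. Adgre1, Mpeg1, Csf1r, Itgam and Rac2 passed on exactly 3 arrays, Coco/KO 3 among them, and would not pass without it. Of the members described below with smaller differences, Aif1 was at 0.15, Cd163 at 0.15, Cd83 at 0.11, Cybb at 0.10 and Ctsc at 0.08 in that fit. The plot of all tested members by array shows this order gene by gene.

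**Figure D1:**
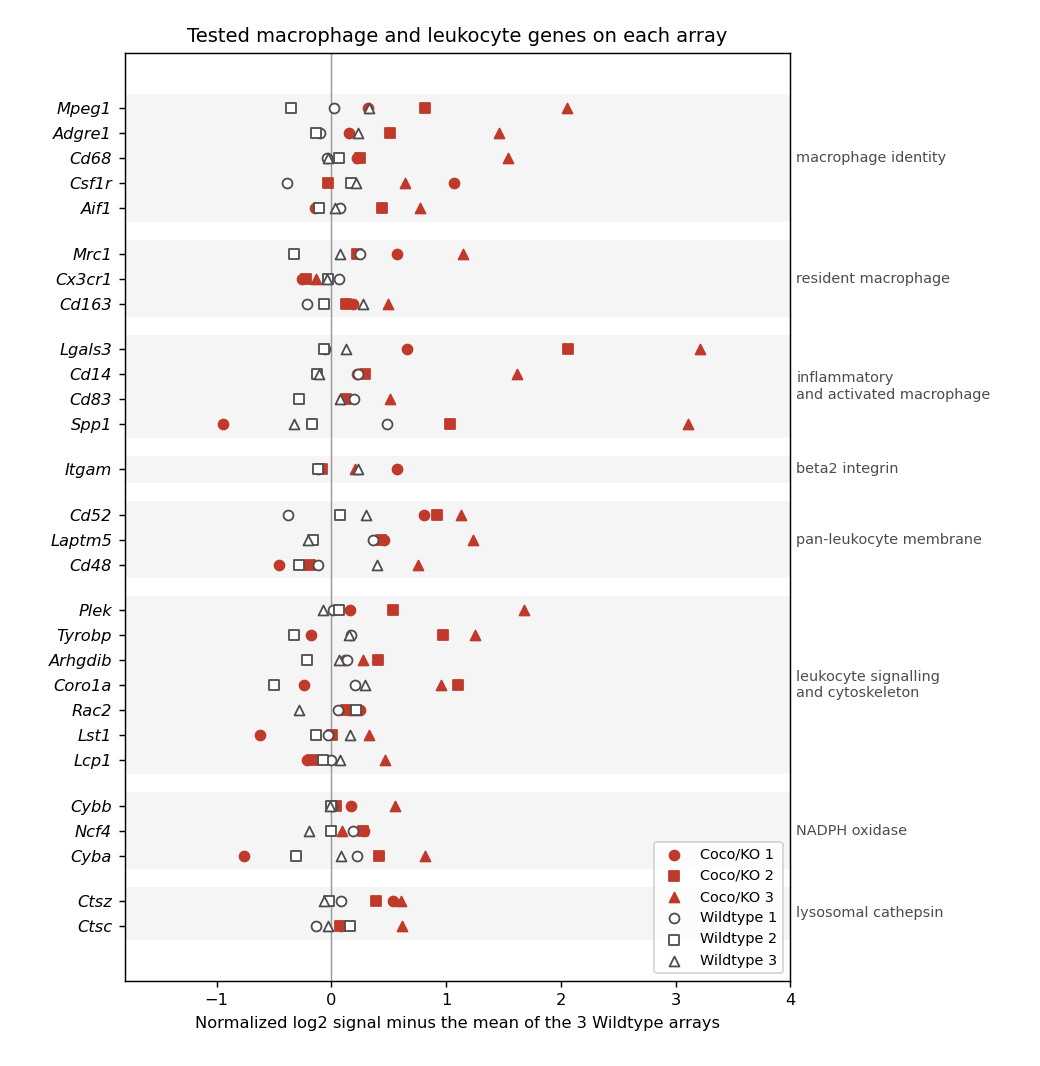
Normalized log2 signal of each of the 28 tested members on each array, minus the mean of the 3 wild-type arrays, with genes grouped by role. Filled red symbols are Coco/KO arrays and open symbols are wild-type arrays; the filled triangle (Coco/KO 3) is the highest point for 21 genes.

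General macrophage genes came first. Mpeg1, the pore-forming perforin-2 of phagocytes, had normalized intensities of 358, 531 and 1331 on the Coco/KO arrays, against 282, 204 and 361 on the wild-type arrays. Coco/KO 1 lay just under the highest wild-type array, and the other Coco/KO arrays lay above all 3. Its log2 difference was 1.06 (SE 0.40, limma adjusted p = 0.510), and it was 0.56 without Coco/KO 3. Adgre1, listed as EMR1 and known as the F4/80 antigen of mouse macrophages, measured 389, 516 and 1052 on the Coco/KO arrays, against 318, 308 and 412 on the wild-type arrays. Here too the lowest Coco/KO array overlapped the wild-type range (log2 difference 0.71, SE 0.31, adjusted p = 0.602, and 0.33 without Coco/KO 3). Both genes passed the detection rule on 3 arrays only, although the lowest deposited intensity was 232 for Mpeg1 and 259 for Adgre1.

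Cd68, a lysosomal glycoprotein of macrophages, stood at 291, 299 and 816 on the Coco/KO arrays, against 234, 255 and 236 on the wild-type arrays. The genotypes did not overlap, but 2 Coco/KO arrays lay close to the wild-type values, and the log2 difference of 0.67 (SE 0.32, adjusted p = 0.651) became 0.24 without Coco/KO 3. Csf1r, the receptor on which macrophage survival depends, was highest on Coco/KO 1 and lowest on wild-type array 1. The groups overlapped, with Coco/KO 2 (46) below wild-type arrays 2 and 3 (62 and 66). Its log2 difference was 0.56 (SE 0.29, adjusted p = 0.673), or 0.30 without Coco/KO 1 and 0.50 without Coco/KO 3. Aif1, a calcium-binding actin-bundling protein known as Iba1, had a log2 difference of 0.36 (SE 0.23), with Coco/KO 1 the lowest of the 6 arrays. All 5 tested genes of this group were above 0, with a median of 0.67, and a median of 0.33 without Coco/KO 3. Ms4a7, a tetraspan membrane protein of macrophages, was detected on no array and had deposited intensities from 5.5 to 186.9.

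Of the pan-leukocyte membrane genes, Cd52, a small glycosylphosphatidylinositol-anchored glycoprotein of leukocytes, had the lowest p of all members. Its normalized intensity was 82.7, 93.5 and 118 on the Coco/KO arrays, against 3.33, 26.0 and 40.8 on the wild-type arrays. The lowest Coco/KO array was above the highest wild-type array, and wild-type array 1 did not detect it. The log2 signal was 7.29 ± 0.16 in Coco/KO and 6.33 ± 0.35 in wild-type soleus (SD, n = 3 each), a log2 difference of 0.95 (SE 0.20, limma adjusted p = 0.229). The difference was 0.84 without Coco/KO 3, so it rested on that pool less than those of Mpeg1 or Cd68. With modelled background it was 0.13.

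Laptm5, a lysosomal membrane protein of blood cells that promotes receptor degradation, measured 1187, 1167 and 2075 on the Coco/KO arrays, against 1111, 753 and 730 on the wild-type arrays. The groups lay close but did not overlap (log2 difference 0.71, SE 0.25, adjusted p = 0.485, and 0.44 without Coco/KO 3). Cd48, a ligand of Cd244 on leukocytes, had a log2 difference of 0.04 (SE 0.32), which was -0.31 without Coco/KO 3. Cd53, a leukocyte tetraspanin, failed the detection rule on all 6 arrays although its deposited intensities lay between 187.7 and 1160. Its normalized intensities were 224, 430 and 910 on the Coco/KO arrays, against 226, 268 and 349 on the wild-type arrays, with Coco/KO 1 lowest and Coco/KO 3 highest. Ptprc, the pan-leukocyte phosphatase Cd45, was detected on no array and lay between -3.2 and 60.5.

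**Figure D2:**
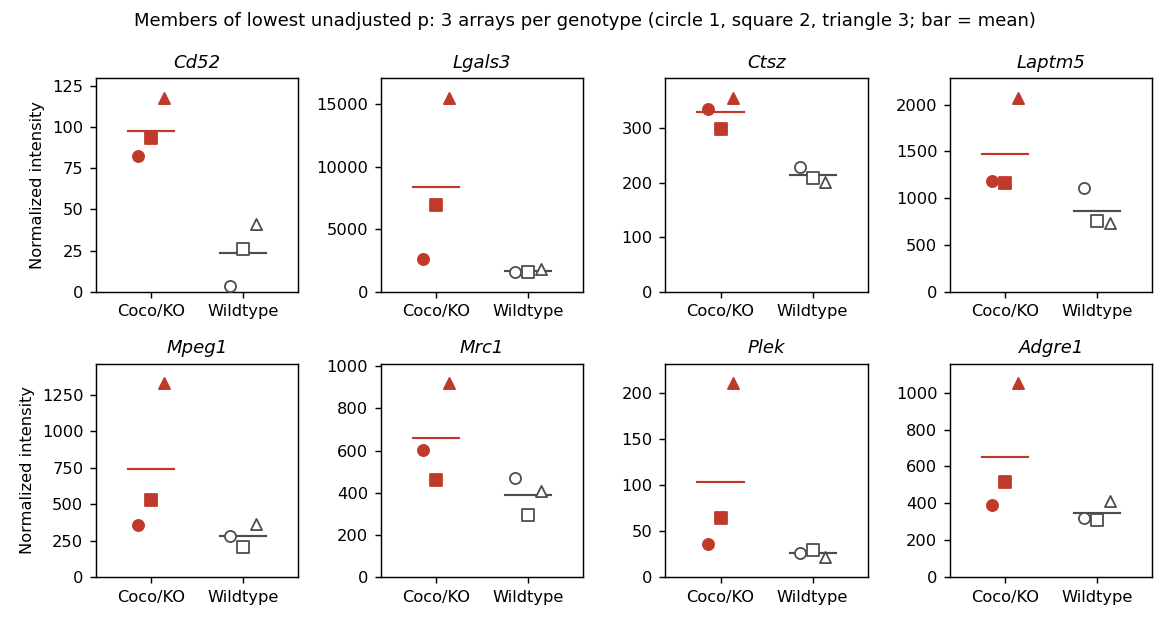
Normalized intensity (linear axis from 0) of the 8 members of lowest unadjusted p on the 3 Coco/KO arrays (filled) and the 3 wild-type arrays (open), with the mean of each genotype as a line. Cd52, Lgals3, Ctsz, Laptm5 and Plek show no overlap between genotypes, and Coco/KO 3 is the highest point in each panel.

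Among the inflammatory and activated macrophage genes the difference of Lgals3 was the largest of all tested members. Lgals3 encodes galectin-3, a galactoside-binding lectin abundant in activated macrophages and also made by other cells. Its normalized intensity was 2593, 6973 and 15527 on the Coco/KO arrays, against 1553, 1543 and 1775 on the wild-type arrays. Every Coco/KO array lay above every wild-type array, and the Coco/KO arrays differed among themselves far more than the wild-type arrays did. The log2 signal was 12.69 ± 1.28 in Coco/KO and 10.71 ± 0.11 in wild-type soleus (SD, n = 3 each), a 3.95-fold higher signal with a log2 difference of 1.98 (SE 0.52, adjusted p = 0.325). The difference was 1.37 without Coco/KO 3. Without Coco/KO 1 it was 2.66 and passed the threshold (adjusted p = 0.0187), the only call of a member in any of 19 alternative settings.

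For Lgals3 the standard error over beads was 111, 258 and 621 for deposited intensities of 2680, 5678 and 18916 on the Coco/KO arrays, against 46.4, 81.5 and 56.2 for 1236, 1814 and 1826 on the wild-type arrays.

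Spp1, osteopontin, a secreted phosphoprotein of activated macrophages and bone, measured 122, 655 and 2928 on the Coco/KO arrays, against 429, 251 and 219 on the wild-type arrays. Coco/KO 1 was the lowest and Coco/KO 3 the highest of the 6 arrays, and the log2 difference of 1.07 (SE 0.82, adjusted p = 0.828) became 0.05 without Coco/KO 3. Cd14, the lipopolysaccharide co-receptor, measured 105, 113 and 369 on the Coco/KO arrays, against 106, 69.5 and 70.7 on the wild-type arrays, so that only Coco/KO 3 stood clearly apart (log2 difference 0.71, SE 0.34, and 0.26 without Coco/KO 3). Cd83, a membrane protein of activated antigen-presenting cells, measured 74.2, 76.9 and 118 on the Coco/KO arrays, against 83.6, 43.5 and 72.2 on the wild-type arrays, with overlap (log2 difference 0.25, SE 0.19). Gpnmb, a lysosomal glycoprotein of phagocytic macrophages, was detected on 2 arrays and was not tested. Its normalized intensities were 120, 169 and 494 on the Coco/KO arrays, against 104, 126 and 137 on the wild-type arrays, with Coco/KO 3 highest. Ccr2, the receptor of inflammatory monocytes, was detected on no array, the integrin Itgax (Cd11c) on 2 Coco/KO arrays and 0 wild-type arrays, and the scavenger receptor Msr1 on 0 Coco/KO arrays and 1 wild-type array, all at deposited intensities of 16 or less.

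The 3 resident macrophage genes did not all lie on the same side of 0. Mrc1, the mannose receptor, measured 601, 460 and 920 on the Coco/KO arrays, against 467, 295 and 408 on the wild-type arrays. Coco/KO 2 lay just under wild-type array 1, and the log2 difference was 0.65 (SE 0.25, limma adjusted p = 0.524), or 0.40 without Coco/KO 3. Cd163, the haemoglobin scavenger receptor, measured 35.6, 31.6 and 57.7 on the Coco/KO arrays, against 12.7, 20.4 and 41.7 on the wild-type arrays, with overlap (log2 difference 0.27, SE 0.18, adjusted p = 0.777). Cx3cr1, the fractalkine receptor, ran the other way at 16.3, 18.1 and 22.7 on the Coco/KO arrays, against 35.1, 29.0 and 28.4 on the wild-type arrays. It was the 1 tested member whose groups did not overlap with Coco/KO lower (6.61% of all tested rows), with a log2 difference of -0.20 (SE 0.13, adjusted p = 0.761), at intensities near background.

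Set side by side, the 4 tested inflammatory members had a median log2 difference of 0.89 and the 3 tested resident members one of 0.27, with no test of the difference. Over all rows of each group with no filter on detection, the medians were 0.45 for the 8 inflammatory members and 0.27 for the 3 resident ones. Without Coco/KO 3 the medians of the tested members were 0.18 (inflammatory) and 0.15 (resident). Without Coco/KO 1 they were 1.51 (inflammatory) and 0.31 (resident). The resident median was 0.029 with modelled background, 0.17 without wild-type array 1 and 0.41 without wild-type array 3. On the Coco/KO 3 array the inflammatory members stood a median of 2.36 above the wild-type mean and the resident members 0.49, while on Coco/KO 1 the values were 0.16 and 0.19. The gap between the 2 groups was therefore widest on Coco/KO 3. It was smaller on Coco/KO 2, where the medians were 0.67 and 0.13, and was not seen on Coco/KO 1.

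Further genes of both kinds were read from lists chosen with results of these data known. Of 12 further resident markers 11 had a row and 10 were tested; 8 were above 0, with a median of 0.21, and 3 were higher at an unadjusted p under 0.05, where 3.96% of all tested rows were. The median was 0.11 and the count 1 without Coco/KO 3. Folr2, the folate receptor beta of tissue macrophages, measured 263, 235 and 274 on the Coco/KO arrays, against 183, 120 and 99.9 on the wild-type arrays. All 3 Coco/KO arrays were alike and above the wild-type range, and the log2 difference of 0.73 (SE 0.18, adjusted p = 0.298) was 0.68 without Coco/KO 3. Cbr2, a carbonyl reductase found in resident macrophages of the mouse (0.69, SE 0.23), and the hyaluronan receptor Lyve1 (0.61, SE 0.21, and 0.39 without Coco/KO 3) also had no overlap. Of 20 further inflammatory markers 7 were tested and 4 were above 0. Their median of 0.10 lay below that of the further resident markers, with no test of the difference. Over all rows with no filter on detection the order was the other way, with medians of 0.12 for the further resident and 0.18 for the further inflammatory markers. Of the 7 tested inflammatory markers 2 were higher at an unadjusted p under 0.05. These were the C-type lectin Clec4d (1.57, SE 0.57) and the lipid-sensing receptor Trem2 (0.76, SE 0.32). Without Coco/KO 3 these differences were 0.88 for Clec4d and 0.39 for Trem2, the count was 0 and the median of the list was 0.20. Trem1, a neutrophil and monocyte receptor, was at -0.19 (SE 0.16). The other tested genes of this list were Cd9 (0.22), Ly6c1 (0.10, itself the median), Plac8 (-0.02) and Cd36 (-0.23). Which cells of the whole muscle gave these signals was not tested. The cytokine genes Il1b, Tnf and Il6 and the nitric oxide synthase Nos2, named after their values were seen, were not tested, as their rows were detected on at most 2 arrays. Il6 was detected on 2 Coco/KO arrays and 0 wild-type arrays, Il1b on 1 wild-type array, and Tnf and Nos2 on none.

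**Figure D3:**
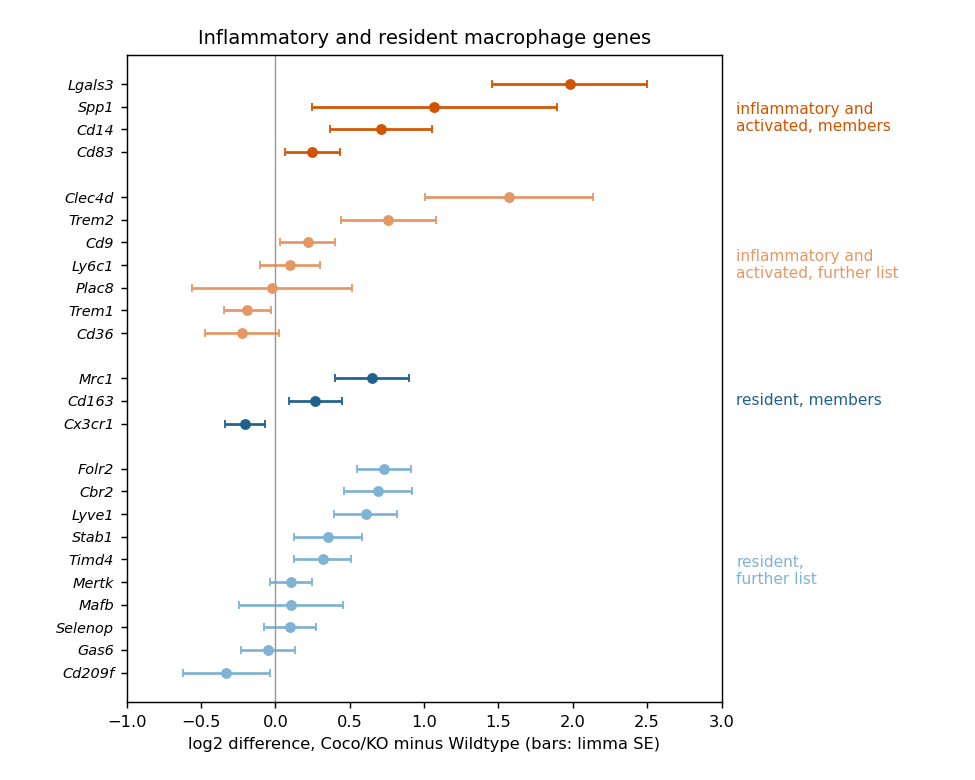
Log2 difference, Coco/KO minus wild type, of each tested inflammatory (orange) and resident (blue) macrophage gene, with limma standard errors as bars. Members are drawn in the darker shade and genes of the further lists in the lighter one; Lgals3 lies furthest to the right at 1.98, and Cx3cr1 is the 1 member left of 0.

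The beta2 integrin chains, which let myeloid cells adhere and migrate, were near background. Itgam (Cd11b) measured 42.2, 5.38 and 19.6 on the Coco/KO arrays, against 3.91, 3.68 and 21.1 on the wild-type arrays, with overlap (log2 difference 0.23, SE 0.20). Itgb2 (Cd18), its partner, was detected on Coco/KO 3 only, at a normalized intensity of 36.8, and was not tested.

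Of the 7 signalling and cytoskeletal genes, all tested, Plek, the protein kinase C substrate pleckstrin of platelets and leukocytes, had the lowest p. It measured 35.6, 63.8 and 211 on the Coco/KO arrays, against 26.3, 29.5 and 21.4 on the wild-type arrays, without overlap (log2 difference 0.79, SE 0.34, adjusted p = 0.597, and 0.33 without Coco/KO 3). Tyrobp (DAP12), the adaptor that carries signals of many myeloid receptors, measured 212, 541 and 668 on the Coco/KO arrays, against 285, 185 and 282 on the wild-type arrays. Coco/KO 2 and 3 were high and Coco/KO 1 lay within the wild-type range (log2 difference 0.68, SE 0.34, adjusted p = 0.670, and 0.40 without Coco/KO 3). Coro1a, a leukocyte actin-binding coronin, also had Coco/KO 1 within the wild-type range, with 181, 549 and 490 on the Coco/KO arrays, against 268, 141 and 288 on the wild-type arrays. Arhgdib (0.27, SE 0.16), the haematopoietic GTPase Rac2 (0.19, SE 0.16), the actin bundler Lcp1 (0.03, SE 0.20) and Lst1 (-0.10, SE 0.24) lay closer to 0, and Lcp1 and Lst1 changed sign in some settings. The median of the group was 0.27.

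The phagocyte NADPH oxidase makes superoxide from a membrane pair, Cybb and Cyba, and cytosolic subunits. Cybb measured 52.7, 42.9 and 86.5 on the Coco/KO arrays, against 40.6, 40.1 and 39.5 on the wild-type arrays. The genotypes did not overlap by a small margin (log2 difference 0.26, SE 0.17, adjusted p = 0.760). Ncf4 measured 65.5, 64.8 and 50.4 on the Coco/KO arrays, against 58.1, 43.5 and 30.9 on the wild-type arrays, with overlap (0.22, SE 0.15). Cyba, which is expressed in many cell types, had a log2 difference of 0.16 (SE 0.37), or -0.17 without Coco/KO 3, with Coco/KO 1 lowest and Coco/KO 3 highest, and Ncf1 was detected on no array.

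The 2 lysosomal cathepsins differed in how evenly the pools behaved. Ctsz measured 335, 298 and 356 on the Coco/KO arrays, against 229, 209 and 202 on the wild-type arrays. The Coco/KO arrays were close together and all above the wild-type arrays, with log2 signals of 8.60 ± 0.11 in Coco/KO and 8.09 ± 0.07 in wild-type soleus (SD, n = 3 each). Its log2 difference of 0.51 (SE 0.14, limma adjusted p = 0.332) was 0.46 without Coco/KO 3. Ctsc, which activates the granule proteases of leukocytes, measured 429, 423 and 644 on the Coco/KO arrays, against 360, 454 and 392 on the wild-type arrays, with overlap (0.26, SE 0.19). Ctsz was 1 of 7 tested members with no overlap and Coco/KO higher, the others being Cd52, Lgals3, Laptm5, Plek, Cd68 and Cybb, where 6.13% of all tested rows had none. In a two-sided exact permutation of the arrays p was 0.1 for Cd52, Lgals3, Ctsz, Laptm5 and Plek, the smallest value that 3 arrays against 3 allow. Groups without overlap always give this value, so it only restates the lack of overlap. In the same permutation p was 0.2 for Mpeg1, Mrc1 and Adgre1.

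The lymphocyte members gave no signal that could be compared. Cd3e, a chain of the T cell receptor complex, was detected on no array and had deposited intensities of at most 13.9. Cd79b, a chain of the B cell receptor complex, was detected on 1 wild-type array and reached 16.7. Of 20 T and NK cell rows 3 were tested, and none had an unadjusted p under 0.05, with log2 differences of 0.11 for Il2rb, 0.10 for Klrd1 and -0.05 for Cd3d. Of 13 B cell and plasma cell rows 4 were tested, among them Ighm (-0.23) and Blnk (0.26). The B cell gene Ms4a1 was not well above background on any Coco/KO array. Its mean signal was at least 1.21-fold lower there, and no decrease was called (limma adjusted p = 0.651). That bound takes no Coco/KO array below the lowest detected signal and leaves out the spread between pools. Il2rb was detected on 6 arrays, Cd3d on 5 and Klrd1 on 3. Among the members that mark macrophages and leukocytes, 14 of 39 were detected on all 6 arrays, and Ms4a7, Ccr2, Ptprc, Cd53, Ncf1 and Cd3e were detected on none.

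Genes that recruit or signal in myeloid cells were read for the same pools. Of 22 chemokine and growth factor names 12 were tested, 7 were above 0, and 5 were higher and 1 lower at an unadjusted p under 0.05 (3.96% and 4.23% of all tested rows). The median was 0.12. The counts were 2 higher and 0 lower, and the median 0.06, without Coco/KO 3. Cxcl14 measured 582, 885 and 966 on the Coco/KO arrays, against 426, 445 and 287 on the wild-type arrays, with no overlap (log2 difference 0.96, SE 0.22, limma adjusted p = 0.281). Ccl6 (1.33, SE 0.45) also had no overlap, while the neutrophil attractant Cxcl1 was at -0.86 (SE 0.31). The other 3 with a higher signal, chosen after their values were seen, were Ccl7 (1.44, SE 0.58), Ccl9 (1.22, SE 0.52) and Ccl2 (1.17, SE 0.47). Without Coco/KO 3 the differences were 0.80 for Ccl6, 1.01 for Ccl7, 0.72 for Ccl9 and 0.77 for Ccl2. The monocyte attractant Ccl2 measured 22.2, 224 and 277 on the Coco/KO arrays, against 11.1, 42.1 and 38.1 on the wild-type arrays. Coco/KO 2 and 3 were high for Ccl2, and Coco/KO 1 lay within the wild-type range, the same pools as for Tyrobp and Coro1a.

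Of 35 names for myeloid signalling and transcription 19 were tested, 18 of them above 0 with a median of 0.27, and 6 were higher at an unadjusted p under 0.05 (3.96% of all tested rows). Fcer1g, the 1 tested gene below 0, was at -0.64 (SE 0.81) with overlap, and at -1.435 without Coco/KO 3. Tlr2, the receptor of bacterial lipopeptides, measured 353, 291 and 417 on the Coco/KO arrays, against 153, 176 and 173 on the wild-type arrays. All Coco/KO arrays were well above the wild-type range, with a log2 difference of 0.86 (SE 0.16, adjusted p = 0.149) and 0.74 without Coco/KO 3. Alox5ap, the activating protein of leukotriene synthesis (1.12, SE 0.29), likewise had no overlap. Of the 11 genes of this list detected on all 6 arrays, 11 were higher and 4 had an unadjusted p under 0.05 (4.52% of rows detected on all 6 arrays). The phospholipase Plcg2, counted among the 6, was detected on 3 Coco/KO arrays and 0 wild-type arrays. It thus entered the tested rows only through the genotype in which it was brighter. Plcg2 was not well above background on any wild-type array. Its mean signal was at least 1.54-fold higher in Coco/KO, and no increase was called (adjusted p = 0.313). That bound takes each wild-type array at its own value or the lowest detected signal there, whichever was higher. The spread between pools is left out of it. Without Coco/KO 3, 5 genes of this list had an unadjusted p under 0.05, against 4.3% of all tested rows in that fit, while 14 of 19 were above 0 and the median was 0.14.

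**Figure D4:**
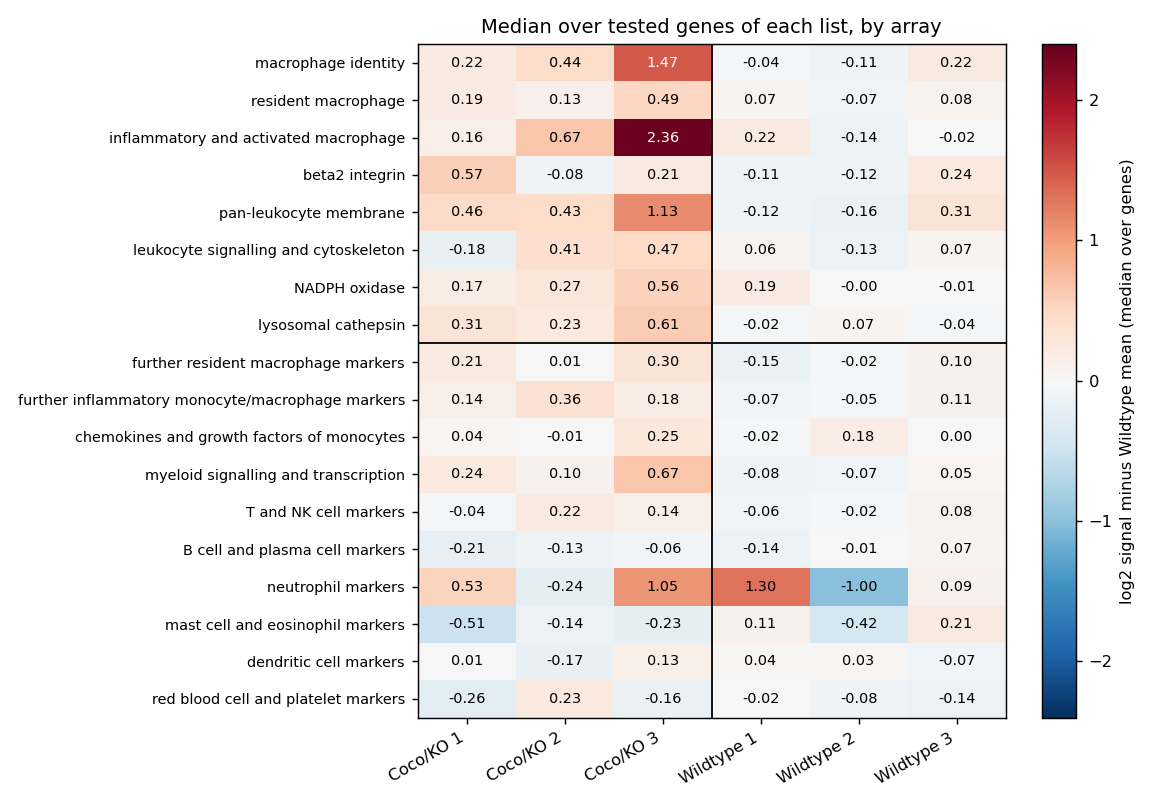
Median over the tested genes of each list of the log2 signal minus the wild-type mean, for each array (columns, Coco/KO left of the line) and list (rows, member groups above the line). Inflammatory members reach 2.36 on Coco/KO 3, and the neutrophil markers reach 1.05 on Coco/KO 3 and 1.30 on wild-type array 1.

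Markers of other blood cells were read beside these results. The summed normalized intensity of red blood cell and platelet rows was between 76244 and 101710 on the Coco/KO arrays, against 90984 to 96745 on the wild-type arrays, with log2 differences of 0.65 for Ppbp, -0.59 for Slc4a1 and -0.33 for Hbb-b2. Neutrophil rows summed to between 6836 and 15814 on the Coco/KO arrays, against 2029 to 26177 on the wild-type arrays. Of its 6 tested rows 1, Retnlg, had an unadjusted p under 0.05 (1.50, SE 0.51), the count was 0 without Coco/KO 3, and Camp (-1.38, SE 1.16) and Lcn2 (0.53, SE 0.54) varied more between pools. Of 7 tested mast cell and eosinophil rows Tpsab1 was lower at an unadjusted p under 0.05 (-1.28, SE 0.43), with Prg2 at -0.81 and Cma1 at 0.26. Of 5 tested dendritic cell rows none was, with Cd209a at 0.38, Fscn1 at 0.25 and Ccr7 at 0.15. The part of these cells in the members' values was not tested.

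Several members of the set met or failed the detection rule narrowly. Adgre1, Mpeg1, Csf1r, Itgam and Rac2 passed on exactly 3 arrays, and Itgax and Gpnmb failed with 2. The score did not follow the intensity in every row: between 245 and 461 rows with a deposited intensity above 200 had a score of 0.95 or less on a given array, of 4458 to 5882 rows that bright. The reason is not stated in the file header. A rule on intensity alone (above 100 on at least 3 arrays), chosen after the data were seen, kept 14 members, among them Cd53 and Gpnmb, which had failed. In that fit of 7341 rows their log2 differences were 0.61 (SE 0.38, adjusted p = 0.724) for Cd53 and 0.64 (SE 0.36, adjusted p = 0.676) for Gpnmb.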

How the data were processed

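Whole soleus muscles were cut frozen, and their RNA was purified, biotin-labelled and put on 1 beadchip, per the labels' protocols. BeadStudio 3.2.6 wrote the deposited intensity table with its normalization switched off, per the file headers. Between 30.1% and 32.9% of the deposited intensity values per array are at or below 0, so background had been subtracted. The deposited detection score is a fraction between 0 and 1, per the file headers. The authors' value table of log2-like values was not used, because its probes are not paired with genes here.

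A constant of 42.7 (bringing the lowest value to 1) and an offset of 16 were added, and log2 values were quantile normalized. Printed normalized intensities are these values on the linear scale with the 58.7 units removed. Folds are on the log2 scale with the 58.7 units and understate changes of dim genes. Genotypes were compared on all 6 arrays with limma 3.58.1 in R 4.3.3, with Benjamini-Hochberg adjustment over 12611 rows and a threshold of 0.05. P-values measure the spread between pools. Names were updated with RefSeq (assembly GRCm38.p6): 38 of 39 members matched by symbol and 1 by synonym.

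Calls were tested on simulated data, with 200 changed rows in each of 20 simulations, and 4.96% of calls were false. Members and lists were chosen with earlier results of these data known. All members are accounted for, with values per array for the 2 tested members of lowest p per role and all resident and inflammatory ones, and up to 3 genes of lowest p per further list. Alternatives changed normalization, offset, background model, filter, variance model, array weights, replicate block, chip position, rows per gene and each array left out. Same-numbered samples are different mice and were not paired. Protein sequences were not used here.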

Additional observations from a re-analysis of the deposited data

How the results depend on the processing

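No member passed the threshold in 18 of 19 alternatives. Without Coco/KO 1 the count was 1 (Lgals3, log2 difference 2.66, adjusted p = 0.0187), so with 1 array left out it ranged from 0 to 1. Of 28 tested members 24 kept their direction wherever they had a value, and Lst1 was 0.12 with chip position in the model. With 1 array left out Cd48 ranged from -0.31 to 0.28, Cyba from -0.17 to 0.62, Lcp1 from -0.18 to 0.15, Lst1 from -0.30 to 0.16 and Lgals3 from 1.37 to 2.66. The 8 members at an unadjusted p under 0.05 became 2 with median scaling, 3 with modelled background and 4 among rows detected on all 6 arrays, and between 3 and 15 with 1 array left out: 3 without Coco/KO 3 or wild-type array 2, 4 without wild-type array 3, 5 without wild-type array 1 and 15 without Coco/KO 1. The median over members was 0.14 with modelled background, and ranged from 0.25 to 0.55 with 1 array left out. The resident median of 0.27 was 0.029 with modelled background, 0.65 (Mrc1 alone) among rows detected on all 6 arrays or under the intensity filter, and 0.43 with chip position. Over all tested rows the 18 calls became 5 with median scaling, 9 with an offset of 50, 2 with modelled background, 9 among rows detected on all 6 arrays and 11 with chip position, and between 5 and 29 with 1 array left out. With the replicate block 13 rows and 0 members were called. The correlations of deviations between same-numbered arrays were -0.045, -0.287 and 0.0906, and those between differently numbered arrays ranged from -0.209 to 0.275. With so few arrays these values cannot show whether same-numbered samples share a factor. The causes of these shifts were not tested. Dim members such as Itgam, Rac2 and Cx3cr1 are limited by signal over background.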

Other observations

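Among the blood cell markers, wild-type array 1 stood apart in genes of the primary granules of immature neutrophils, chosen after their values were seen. Mpo, myeloperoxidase, had deposited intensities of -3.5, 4.2 and -7.7 on the Coco/KO arrays, against 344.6, 2.8 and -11.6 on the wild-type arrays. Neutrophil elastase, listed under the older symbol ELA2, measured -9.3, 8.5 and -1.8 on the Coco/KO arrays, against 191.6, 11.8 and -7.8 on the wild-type arrays. The secondary granule genes Camp (1842.1 on wild-type array 1, at most 68.3 elsewhere), Ltf (269.6, at most 21.0 elsewhere) and Ngp (106.0, at most 5.1 elsewhere) showed the same array, as did the eosinophil granule gene Prg2 (221.7, at most 27.6 elsewhere). That array was not the highest for macrophage members, of which 1 of 28 tested (Cx3cr1) had its highest value there.

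Retnlg, a resistin-like gene of granulocytes, measured 793, 116 and 509 on the Coco/KO arrays, against 125, 55.1 and 121 on the wild-type arrays, with Coco/KO 2 within the wild-type range. Ccl7 measured 126, 940 and 970 on the Coco/KO arrays, against 123, 196 and 148 on the wild-type arrays, with Coco/KO 1 within it.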
